A study of Arabidopsis thaliana with 9 samples.

Results

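The comparison described here is between whole Arabidopsis thaliana seedlings of a line named sps1 and wild type seedlings, both grown in the dark for 10 days. It rests on 6 of the 9 arrays of the study, 3 titled for sps1 and 3 for wild type, chosen by their sample titles. Earlier results of these data were known when the comparison was chosen. The wild type is the accession Col-0, the labels give Col-0 as the genetic background of sps1 too, and no treatment preceded the harvest of either line. The labels do not say what sps1 carries, or whether the arrays of a line came from separate plates, plants or batches, so the p-values reflect the array-to-array spread alone, which may be technical. The remaining 3 arrays are of a Col-0 line named L17, labelled as a phyA' line and also grown for 10 days in the dark. They enter the same model, where they add to the estimate of the spread, and are named below only where sps1 was compared with them directly.

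A seedling that germinates in the dark follows an etiolated programme. The hypocotyl elongates on seed reserves, the cotyledons stay closed, and the plastids become etioplasts, which hold protochlorophyllide and the precursors of thylakoid membranes but no working photosystems. Light converts etioplasts into chloroplasts, and genes for photosynthesis, in the nucleus and in the plastid genome, are then expressed strongly. Seedlings held in the dark for long also use up their reserves and turn to the breakdown of amino acids and lipids. The arrays read these programmes as the RNA of the whole seedling, in which fewer cells of a type and less RNA per cell cannot be told apart.

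RNA of whole seedlings was hybridised to Affymetrix Arabidopsis arrays. Each array gave 1 intensity, here called the signal, for each of 22746 probe sets after control probe sets were left out. The deposited signals were already scaled to a common trimmed mean, and array medians lay between 138 and 156. Among the wild type arrays the third was unlike the others. On it 155 of 13355 named genes were at least 4-fold higher than the mean of the first and second wild type arrays and 19 at least 4-fold lower, and small heat shock genes were among the higher ones, so that AT2G29500 read 9139.9 there against 176 and 160.1. Of those 155 genes 22 passed the test in sps1 against wild type and 45 without that array, where 13.4% and 13.7% of all named genes passed. The counts of the main lists below are also given without it. The ratio of 3′ to 5′ ubiquitin control probe sets, which rises as RNA or its copies lose their 5′ ends, was on average 1.85 ± 0.0915 in wild type and 2.49 ± 0.0660 in sps1, and that of GAPDH 1.42 ± 0.112 and 1.70 ± 0.167 (SD, n = 3, exact two-sided permutation p = 0.1 for each, the smallest p that 3 against 3 arrays allow). A second group of control probe sets for the same ubiquitin and GAPDH transcripts gave 1.05 ± 0.191 and 1.22 ± 0.213, and 1.21 ± 0.217 and 1.09 ± 0.0736 (exact permutation p = 0.4 for each). The actin ratios were 19.3 ± 3.41 and 22.4 ± 3.995 on the first group and 2.65 ± 0.404 and 2.70 ± 0.105 on the second (exact permutation p = 0.5 and 0.8). The part of RNA completeness in the results was not tested. Of the markers of single tissues, the root gene JKD read 231 in wild type and 325 in sps1 (adjusted p = 0.0561), the root hair expansins EXPA7 and EXPA18 averaged under 42 in both lines, and the stomatal lineage genes SPCH, MUTE and FMA averaged under 38, none of these 6 passing the test.

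Of the 22746 probe sets 3325 passed the test (14.6%, limma adjusted p under 0.05), 1519 higher in sps1 (6.68%) and 1806 lower (7.94%). The falls were larger than the rises. On the log2 scale of signal + 16, 293 probe sets fell at least 4-fold and 72 rose at least 4-fold. The median log2 fold change over all probe sets was -0.01, and centring each array on its median moved that median up by 0.11, so directions of small shifts below are relative to it. Without the third wild type array 3406 probe sets passed (15%, with 6.57% higher and 8.4% lower), of which 2775 had been called in the same direction with it. The sps1 and wild type arrays did not overlap at 33.4% of probe sets. Among the 13355 genes named by a probe set of 1 gene, with 1 probe set a gene, 6.06% were called higher and 7.38% lower (6.05% and 7.66% without the third wild type array), and the counts of gene groups below are to be read against these shares. Calls were rarer among dim genes: of 5334 genes with a mean signal under 50, 1.48% were higher and 2.85% lower, whereas of 1661 genes over 1000, 11.3% were higher and 8.31% lower. Of 3691 genes from 200 to 1000, 9.81% were higher and 10.8% lower. The median wild type signal was 108 over all named genes, 391 for the plastid genome list and 546 for the nuclear photosynthetic membrane list below. The shares over all named genes are therefore a low yardstick for brighter lists.

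The largest rises were of genes that the annotation used here gives no name beyond their locus. AT1G50290 read 307, 201 and 192 on the wild type arrays and 4982, 4901 and 5419 on the sps1 arrays, a log2 fold change of 4.39 ± 0.21 (SE), with an adjusted p of 1.19e-05 in limma. AT2G35820 read 149, 142 and 134 in wild type and 3113, 2750.4 and 2895 in sps1. For both the lowest sps1 array was over 10 times the highest wild type array, as it was for GSTU23, a glutathione S-transferase of the tau class, with means of 25.3 ± 8.79 in wild type and 721 ± 138 in sps1 (SD, n = 3). Several rises began from almost no signal. AT5G20460 read 1.62, 5.30 and 5.73 in wild type and 305, 218 and 408 in sps1, AT4G19730 read 4.08, 18.998 and 12.6 in wild type and 391, 326 and 244 in sps1, and AT5G48350 2.15, 1.52 and 1.95 in wild type and 107, 114 and 53.3 in sps1. Signals under 16 lie below the pseudocount, so the log2 fold changes of these genes, 3.98, 3.61 and 2.53, understate their ratios.

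Named genes among the 25 largest rises were few. FOLB1, which encodes a dihydroneopterin aldolase of folate synthesis, read 50.4, 51.8 and 12.03 in wild type and 349, 303 and 346 in sps1 (limma adjusted p = 7.01e-04). The plastid genes rpoC2 and psbA stood at log2 fold changes of 2.75 ± 0.23 and 2.73 ± 0.34 (SE), and are described with the plastid genome below. AT2G23480, AT3G29775 and AT3G32080 are annotated as pseudogenes. They averaged 7.36, 18.6 and 5.85 in wild type and 280.0, 267 and 152 in sps1, and the probe set of AT2G23480 is of a type that can also bind related transcripts. Of 923 annotated pseudogenes measured, whose median signal in wild type was 9.11, 13 rose and 25 fell (22 and 24 without the third wild type array). The other 13 of the 25 rises had log2 fold changes between 2.55 and 4.12 and were bare loci. The 25th and the 26th gene in this order differed little, at 2.53 and 2.51.

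The largest falls took abundant transcripts close to no signal. AT5G45500 read 2002, 1953 and 2313 in wild type and 6.05, 4.96 and 3.83 in sps1, and AT3G55790 902, 732 and 821 in wild type and 1.58, 1.44 and 1.98 in sps1. ZW9 read 3653, 3349.8 and 2949 in wild type and 24.5, 28.8 and 10.02 in sps1, a log2 fold change of -6.52 ± 0.21 (SE), with an adjusted p of 9.50e-07 in limma. CYP71B34, of the cytochrome P450 family of oxidative enzymes, read 609, 611 and 515 in wild type and 2.70, 14.5 and 0.677 in sps1. In all of these the groups were separated by a factor over 20. CHI, annotated as a putative chitinase, an enzyme that cuts the chitin of fungal walls, read 1702, 1195 and 3119 in wild type and 106, 88.1 and 78.2 in sps1. Across the array 10 probe sets were at least 200 on all 3 wild type arrays and under 16 on all 3 sps1 arrays, and 1 showed the reverse, that of AT5G20460. Of the 10, 6 named 1 gene, AT5G45500, AT3G55790, AT3G47250, CYP71B34, AT1G16260 and the pseudogene AT2G13970, the last being outside the naming rule and named after its values were seen. Of the 10, 8 also lay under 16 on all 3 L17 arrays and 1 differed between sps1 and L17.

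The third wild type array raised some of the falls and lowered others. AT1G26380 read 418, 308 and 8554 in wild type and 19.9, 1.26 and 1.73 in sps1, and its log2 fold change of -5.58 became -4.07 without that array (adjusted p = 1.00e-03). AT1G26390, the next measured gene, read 722, 261 and 576 in wild type and 1.59, 2.22 and 18.8 in sps1. AT1G26420 read 264, 183 and 1155 in wild type and 3.14, 7.07 and 20.9 in sps1, and its fold change went from -3.99 to -3.22. AT3G18250 went from -3.94 to -3.31. In AT5G23830 the third array was instead the lowest of wild type, at 579, and the fold change went from -5.23 to -5.80. All 25 falls and all 25 rises passed the test without the third wild type array, as the rule that chose them required. The falls ended at -3.92 for AT4G19500, with the next gene at -3.87.

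**Figure D1:**
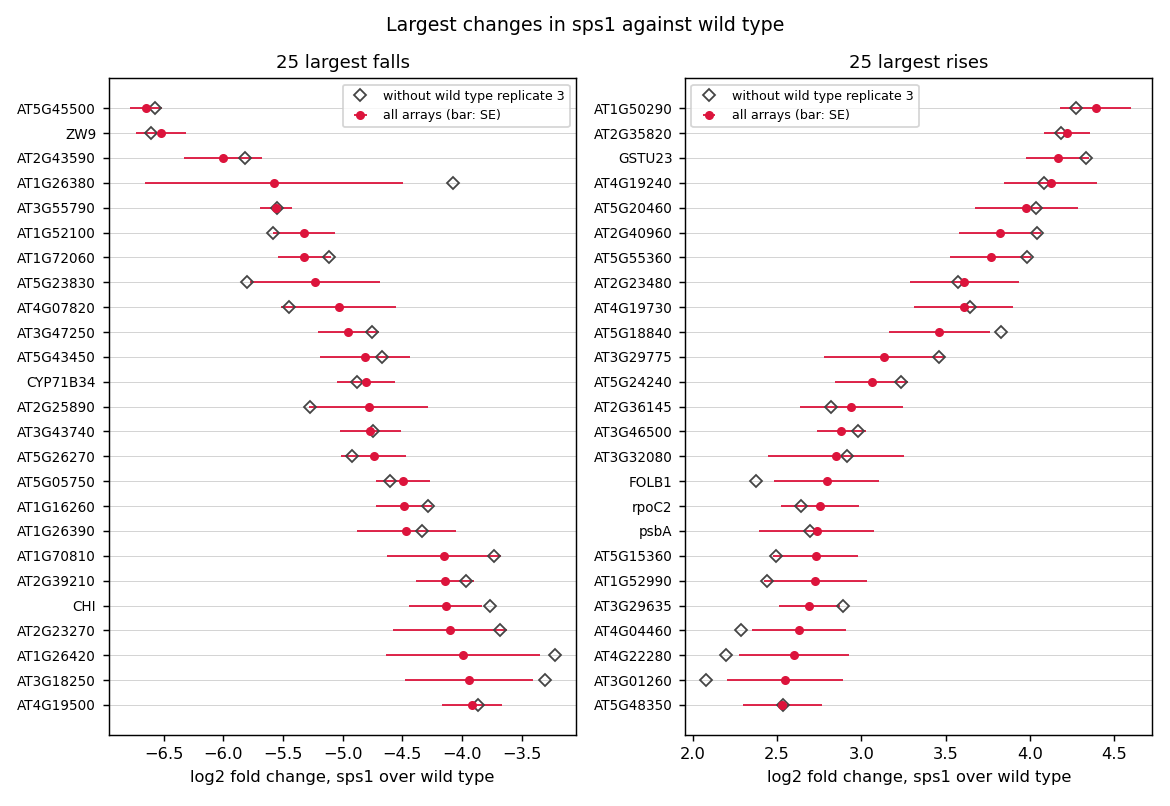
Log2 fold change of sps1 over wild type on the scale of log2(signal + 16) for the 25 largest falls (left) and the 25 largest rises (right). Filled points are the fit with all arrays with its SE as a bar, and open diamonds the fit without wild type replicate 3. AT1G26380 moved furthest, from -5.58 to -4.07, and the falls reach further from 0 than the rises.

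Among transcripts of the plastid genome the calls were rises. Of 69 measured, 20 rose, 0 fell and 49 did not pass, and 64 had a positive log2 fold change, with a median of 0.79 against -0.01 for all genes. In the fit that left out wild type replicate 3, 16 rose and the median was 0.54. Without sps1 replicate 2 or sps1 replicate 3 the rises numbered 13 and 9, with wild type and sps1 arrays alone 12, and 9 kept their call with any 1 array left out. The rises were spread over what the genome encodes. Of 15 genes for ribosomal proteins 5 rose and all 15 had a positive value, with a median of 1.03 (0.75 without that array). Of 4 genes for the RNA polymerase that the plastid itself encodes 2 rose, rpoC2 and rpoA. Of 20 photosystem genes 3 rose, of 10 NDH complex genes 3, of 6 ATP synthase genes 2 and of 6 cytochrome b6f genes 1. Without the third wild type array there were 2 photosystem and 2 cytochrome b6f calls. The 3 NDH calls, ndhC, ndhJ and ndhK, were then not made, and the median of the 6 ATP synthase genes went from 0.67 to 0.21.

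Among the plastid members the strongest tests were those of rpoC2, rps4 and psbA. rpoC2, a subunit of the RNA polymerase, read 134, 93.4 and 85.2 in wild type and 649, 666 and 1105 in sps1. rps4, a protein of the small ribosomal subunit, read 4619, 5000.10 and 3034 in wild type and 14209, 14199 and 15213 in sps1. psbA, which encodes the D1 protein of the photosystem II reaction centre, read 139, 160.5 and 135 in wild type and 575, 1413 and 1423 in sps1, the first sps1 array being well below the other two. psaJ, a small subunit of photosystem I, had a log2 fold change of 1.64 ± 0.22 (SE), with an adjusted p of 0.00156 in limma, and petA, cytochrome f of the electron chain between the photosystems, one of 1.65 ± 0.23 (adjusted p = 0.00236). The level in sps1 was not shown to differ from that in L17 for any of rpoC2, rps4, psbA, psaJ and petA (adjusted p between 0.297 and 0.961). The part of the 3′ to 5′ ratios given above in these rises was not tested.

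Of the nuclear genes for the photosynthetic membrane, in a list compiled after values were seen, more rose than fell. Of 35 measured 13 rose, 2 fell, leaving 20 that missed the threshold, and the list's median log2 fold change was 0.48 (12 rose and 2 fell without the third wild type array). The shorter list of photosystem, electron transport and light harvesting genes had 3 rises and 1 fall among 9, with a median of 0.54. The strongest of the 35 was NdhL, a subunit of the NADH dehydrogenase-like complex that returns electrons to the chain around photosystem I. It read 58.01, 53.2 and 58.1 in wild type and 343, 459.6 and 398 in sps1, a log2 fold change of 2.51 ± 0.24 (SE), with an adjusted p of 3.16e-04 in limma, and NdhN of the same complex read 65.6, 50.1 and 106 in wild type and 222, 239 and 259 in sps1. For both subunits every sps1 array was over 2 times the highest wild type array. CURT1A (AT4G01150), which bends thylakoid membranes at the edges of grana, read 1428, 1234 and 1668 in wild type and 3866, 4127 and 4071 in sps1. PSB27, an assembly factor of photosystem II, read 2664, 2567 and 3549.9 in wild type and 5833, 5986 and 6444 in sps1, and PSBY, a small subunit, rose by 1.14 ± 0.20 on the log2 scale (SE). TROL, a thylakoid protein that anchors ferredoxin reductase, and CYTC6A, a thylakoid cytochrome c6-like protein, rose by 1.12 and 0.78. The falls were of LHCB4.2, a minor antenna protein of photosystem II, at 4584, 4648 and 4470.2 in wild type and 2363, 2519 and 2762 in sps1, and of TAAC, a thylakoid ATP carrier, whose log2 fold change was -1.29. TAAC lost its call without any 1 of the sps1 arrays (limma adjusted p between 0.0660 and 0.0783). LHCB4.1, the near copy of LHCB4.2, gave 0.39 (adjusted p = 0.113).

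Enzymes that build chlorophyll also rose more often than they fell. Of 15 genes of tetrapyrrole and chlorophyll synthesis, a list compiled after values were seen, 6 rose and 1 fell. The counts were the same without the third wild type array, and the median was 0.53. The shorter list had 3 rises and 1 fall among 11 genes, with and without that array, and a median of 0.40. Its rises numbered 1 without sps1 replicate 2, sps1 replicate 3 or wild type replicate 2. Geranylgeranyl reductase (AT1G74470), which makes the phytyl tail of chlorophyll and of tocopherol, read 3859, 3622 and 4437 in wild type and 9343, 10328 and 9321 in sps1. LIL3:1 and LIL3:2, light-harvesting-like membrane proteins that hold this reductase at the thylakoid and are counted among the membrane genes too, rose with it. LIL3:1 read 352, 239 and 416 in wild type and 1002, 1215 and 1384 in sps1, and LIL3:2 1928, 1569.6 and 1773 in wild type and 3875, 4533 and 5632 in sps1. The groups did not overlap for any of these 3 genes. PORB, a protochlorophyllide reductase, rose by 1.08 ± 0.21 on the log2 scale (SE), and the fall was that of HEMA2, an isoform of the first committed enzyme of the pathway, at -1.77. CHLM, a methyltransferase of the magnesium branch, gave 0.40 (adjusted p = 0.0986).

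Some enzymes of carbon fixation, which work in the stroma, rose. Of 12 genes for carbon fixation, sugar phosphates and starch, a list also compiled after values were seen, 5 rose and 0 fell. Those counts held without the third wild type array, and the median was 0.45. SBPASE, the sedoheptulose bisphosphatase that helps regenerate the acceptor of CO2, read 405, 335 and 377 in wild type and 1395, 1564 and 1521 in sps1, a log2 fold change of 1.96 ± 0.17 (SE), with an adjusted p of 1.86e-04 in limma. PRK, phosphoribulokinase of the same cycle, read 1978, 1728 and 1927 in wild type and 3141, 4365 and 3804 in sps1, and the Rubisco activase RCA 2852, 2818 and 3392 in wild type and 5856, 6509 and 6096 in sps1. All 3 of these Calvin cycle genes, the whole of the shorter Calvin cycle list, rose in every fit with 1 array left out. NADP-MDH (AT5G58330), the malate dehydrogenase that exports reducing power from chloroplasts, rose by 0.88 on the log2 scale, from a mean of 618 to 1149.

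Redox proteins gave different counts in the lists examined. In the list of redox and peroxide-removing enzymes, compiled after values were seen, of 17 measured 6 rose and 1 fell (5 and 1 without the third wild type array), with a median of 0.32. The rises numbered 2 without sps1 replicate 1, and 3 without sps1 replicate 2, sps1 replicate 3 or wild type replicate 2. The other list, of reactive oxygen scavenging, had 2 rises and 2 falls among 12 genes, with and without the third wild type array, and a median of -0.16. CCS, the copper chaperone of superoxide dismutase, read 1566, 1553 and 1607 in wild type and 2862, 2750.2 and 2569 in sps1. AOR, a reductase of reactive carbonyls, rose by 1.08 on the log2 scale. TAPX, the ascorbate peroxidase bound to thylakoids, read 216, 204 and 123 in wild type and 411, 384 and 330.1 in sps1, a call lost without sps1 replicate 1 (limma adjusted p = 0.0508). The single fall of the longer list was MSRB5, a methionine sulfoxide reductase, at 1110.4, 858 and 1232 in wild type and 236, 227 and 182 in sps1 (limma adjusted p = 1.63e-04). A list of 15 genes for plastid division, import and protein folding was compiled after values were seen. It held 5 rises and 0 falls (7 rises without the third wild type array). Of the 5 rises 1 kept its call with any 1 array left out. FTSZ2-1, a tubulin-like protein of the plastid division ring, read 361, 389 and 458 in wild type and 687, 672 and 603 in sps1.

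**Figure D2:**
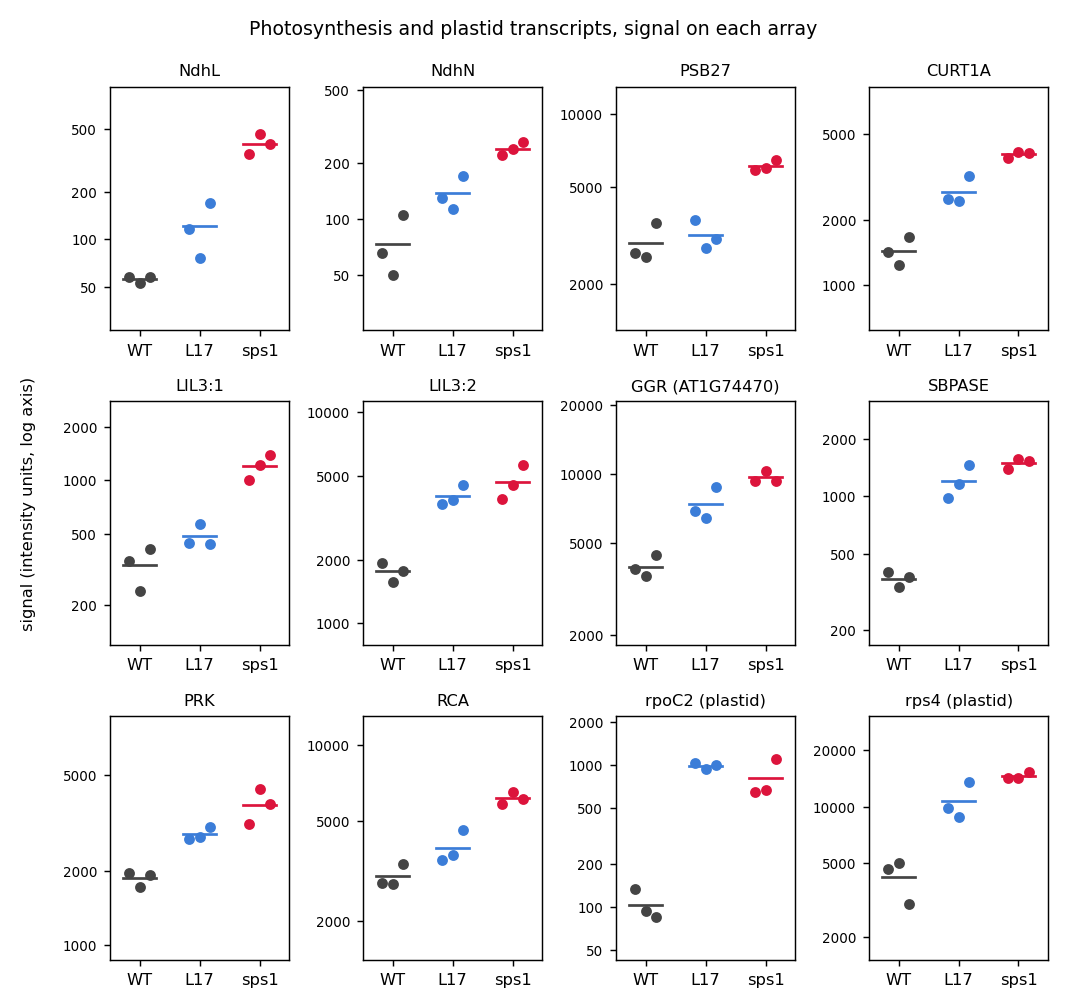
Signal (intensity units, log axis) on each of the 9 arrays for 12 photosynthesis and plastid transcripts, with points for arrays in the order of their replicate numbers and bars for the mean of 3. In every panel the 3 sps1 arrays lie above the 3 wild type arrays, and NdhL, PSB27, LIL3:1 and RCA were also higher in sps1 than in L17.

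The processing of organelle RNA and the mitochondrial genome, in lists compiled after values were seen, gave mixed counts. Of 22 genes for organelle RNA processing 4 rose and 2 fell (3 and 1 without the third wild type array). RH39, an RNA helicase needed for the ribosomal RNA of the plastid, read 89.8, 113 and 77.5 in wild type and 221, 249.9 and 229 in sps1, while PPR336, of the mitochondrial ribosome, read 309, 344 and 306 in wild type and 142, 68.2 and 158 in sps1. Of 16 mitochondrial transcripts 2 rose and 2 fell, at a median of -0.04, which median centring turned to 0.07. The rises were cox1, a core subunit of the terminal oxidase, from 352 to 1071, and ccb382, a factor of cytochrome c assembly, from 395 to 1354. The fold change of ccb382 went from 1.92 to 1.36 without the third wild type array. The falls were ccb452, of the same assembly pathway, whose probe set can bind related transcripts, and nad4L, a call lost without 7 of the 9 arrays including wild type replicate 3 (adjusted p = 0.0788).

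Small groups of primary metabolism also moved. Of 4 folate genes, a list compiled after values were seen, 3 rose (3 without the third wild type array). Beside FOLB1, its paralog FOLB2 read 318, 277 and 236 in wild type and 804, 902 and 824 in sps1, a log2 fold change of 1.56 ± 0.16 (SE), with an adjusted p of 4.44e-04 in limma. Of 12 genes for the breakdown of branched-chain amino acids and lysine, which dark-held plants use as fuel, 2 rose and 1 fell, with and without the third wild type array. This list too was compiled after values were seen, and 1 of its calls was kept with any 1 array left out. ETFQO, which passes their electrons to ubiquinone, read 1432, 1269.9 and 1513 in wild type and 2704, 2087 and 2245 in sps1, and the difference from L17 also passed (adjusted p = 0.0105). The wider list of dark starvation, senescence and autophagy had 3 rises and 0 falls among 20 genes. Its median was -0.11, and -0.006 after median centring. Of its 3 rises 1 kept its call with any 1 array left out. None of 3 genes of beta-oxidation and the glyoxylate cycle passed, while 1 rose without the third wild type array.

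Among defence genes, in a list compiled after values were seen, the calls were mostly falls. Of 32 chitinases, osmotins, defensins, lectins and other defence genes 11 fell and 3 rose (11 and 2 without the third wild type array), although the list's median was 0.03. The shorter list of defensins, chitinases and lipid transfer proteins had 3 falls and 2 rises among 15 genes (3 and 1 without that array), with 10 positive values and a median of 0.42. The fall with the smallest p was ChiC, a chitinase, at 649.7, 585 and 488 in wild type and 83.6, 81.2 and 68.5 in sps1, a log2 fold change of -2.65 ± 0.15 (SE), with an adjusted p of 2.39e-05 in limma. F6'H1 (AT3G13610), the hydroxylase that leads to scopoletin and other coumarins, read 2738, 1703 and 3647 in wild type and 463, 418 and 386 in sps1. The jacalin lectin JAL33 read 9799, 10582 and 6629.8 in wild type and 1935, 2358 and 2792 in sps1, and the lectin EULS3 1697, 1399 and 1071 in wild type and 489, 561 and 513 in sps1. Every sps1 array of these 4 genes was below every wild type array. CSA1, a disease resistance protein of the TIR-NBS-LRR class, fell from 151 to 13.7, and OSM34, osmotin, from 6609 to 2990.1. The defensin PDF2.5 rose from 58.4, 53.8 and 8.96 to 282, 212 and 245, where the third wild type array was the lowest, while PDF1.4 fell by 1.15 on the log2 scale. The secreted peroxidase PRX71 (AT5G64120), one of the most abundant of the falling transcripts, read 13742, 12168 and 10876 in wild type and 4216, 3239 and 3115 in sps1.

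A list of stress-responsive transcription factors, ubiquitin ligases and redox proteins had 13 falls and 2 rises among 36 genes, with a median of -0.84 (13 falls, 0 rises and a median of -0.47 without the third wild type array). The falls numbered 7 without sps1 replicate 2 and 8 without sps1 replicate 3. GRXC1, a glutaredoxin, read 2059, 2100.3 and 1926 in wild type and 400.3, 284 and 320.4 in sps1 (limma adjusted p = 2.39e-05). JRG21, a jasmonate-regulated oxygenase, read 65.9, 92.4 and 104 in wild type and 2.73, 9.51 and 1.67 in sps1, and the ubiquitin ligase LUL1 728, 792 and 469.7 in wild type and 138, 163 and 182 in sps1. None of these 3 rested on the third wild type array. In others that array was the highest of wild type and its removal made the fall smaller. GRX480, a glutaredoxin that binds TGA transcription factors, read 251, 181 and 552 in wild type and 45.8, 63.2 and 46.6 in sps1, WRKY6, a transcription factor of senescence and defence, 506, 476 and 1381 in wild type and 221, 169.9 and 219.8 in sps1, and the zinc finger repressor STZ 436, 417 and 1867 in wild type and 108, 160.2 and 189 in sps1. Without that array their log2 fold changes went from -2.20 to -1.77, from -1.70 to -1.22 and from -2.12 to -1.43, and all 3 calls stood (adjusted p = 8.95e-04, 0.002 and 0.00629). The call of WRKY6 was lost without sps1 replicate 2 (limma adjusted p = 0.0551), and that of STZ without any 1 of the sps1 arrays (limma adjusted p between 0.0552 and 0.0872).

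Dehydrins and other late embryogenesis abundant (LEA) proteins, which protect cells from drying in seeds and under cold or drought, had 5 falls and 0 rises among 14 genes, with and without the third wild type array. The dehydrin LTI30 read 1867, 2397 and 4093 in wild type and 416, 378 and 392 in sps1. LEA18 read 5413, 5738 and 2444 in wild type and 1078, 996 and 979 in sps1, and LEA4-5 1718, 1755 and 1208 in wild type and 304, 603 and 476 in sps1. The sps1 arrays of LTI30 and LEA18 were close to each other and below every wild type and L17 array. COR47, an abundant dehydrin at 20140.0 in wild type, gave -0.16 (adjusted p = 0.608). The 5 markers of ungerminated seed, which share LEA genes with this list, held 1 fall, that of LEA (AT2G21490) from 651 to 175, and 1 rise, that of the oleosin OLEO3 from 921 to 1418, a call lost without sps1 replicate 1 or 2 (limma adjusted p = 0.0561 and 0.0528). The list of small and other heat shock proteins, which include genes high on the third wild type array, had 1 rise and 1 fall among 16 genes, and 2 and 2 without that array. The shorter list of heat shock proteins and chaperones had 0 rises and 1 fall among 10, and 1 and 2 without that array.

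Enzymes that modify foreign and secondary compounds had calls in several families, most of them falls. Of 51 UDP-glycosyltransferases, which attach sugars to hormones and secondary metabolites, 13 fell and 1 rose (11 and 4 without the third wild type array). Without sps1 replicate 1, 2 or 3 the falls numbered 7, 7 and 5. UGT76C1, which glucosylates cytokinins, read 433, 463 and 408 in wild type and 189, 201 and 181 in sps1, UGT85A5 494, 458 and 373 in wild type and 188, 215 and 189.8 in sps1, and UGT73B1 706, 874 and 1019 in wild type and 463, 457 and 425 in sps1. UGT71B6, which glucosylates abscisic acid, read 45.5, 52.4 and 160.3 in wild type and 5.13, 2.83 and 9.98 in sps1, and its fold change went from -2.05 to -1.57 without the third wild type array. The rise was that of UGT78D2, a flavonoid glucosyltransferase, from 54.9 to 136. Of 14 glutathione S-transferases 1 rose, GSTU23 as given above, and 3 fell. GSTU16 read 442, 475 and 483 in wild type and 33.9, 58.9 and 52.4 in sps1, and GSTU22 2659.8, 2389 and 1846 in wild type and 876, 784 and 769.8 in sps1. GSTU25 read 262, 257 and 1714 in wild type and 31.5, 11.6 and 56.6 in sps1, so that its fold change of -3.48 was -2.59 without the third wild type array. Members of one family thus moved in opposite directions, GSTU23 and GSTU22 lying close together on chromosome 1.

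Of 22 cytochromes P450 5 fell and 0 rose (4 falls without the third wild type array). Besides CYP71B34 they were CYP71B24, at 108, 87.8 and 182 in wild type and 12.5, 3.12 and 3.96 in sps1, CYP71B23, at 1229, 1053 and 1049 in wild type and 646, 592 and 635 in sps1, CYP71B25, a call lost without sps1 replicate 2 or 3 or wild type replicate 2 or 3 (limma adjusted p between 0.0518 and 0.0755), and CYP84A4, a hydroxylase of phenolic compounds that fell from 212 to 109. The 4 members of the CYP71B subfamily stand near each other on chromosome 3. The phenylpropanoid list, which supplies lignin, had 3 falls among 9 genes (4 without the third wild type array), and the flavonoid list 1 rise and 2 falls among 9. Of 22 beta-glucosidases 3 rose and 2 fell (5 and 1 without that array). BGLU15 and BGLU25 rose by 1.18 and 1.54 on the log2 scale, and BGLU19 read 411, 368 and 287 in wild type and 65.8, 26.995 and 28.5 in sps1.

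**Figure D3:**
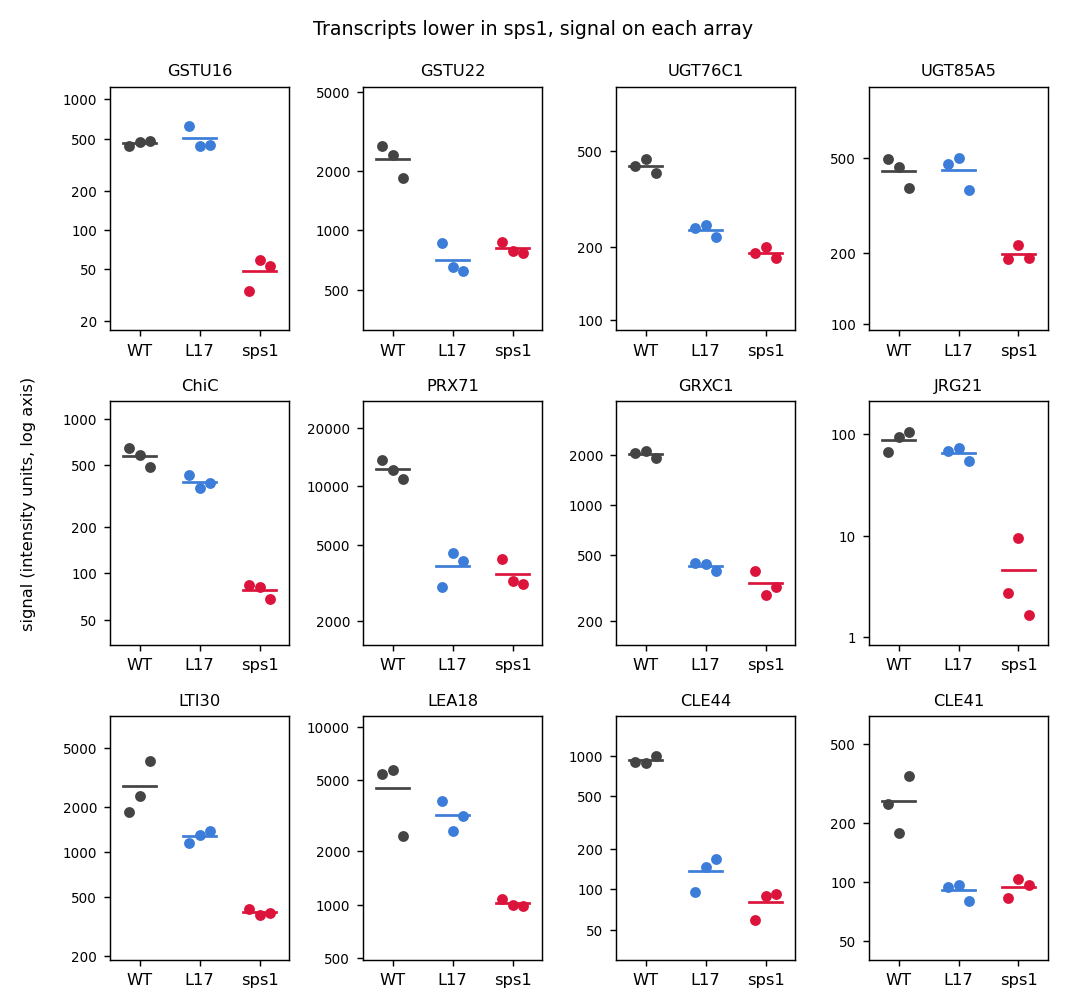
Signal (intensity units, log axis) on each of the 9 arrays for 12 transcripts that fell in sps1, with points for arrays in the order of their replicate numbers and bars for the mean of 3. GSTU16, UGT85A5, ChiC, JRG21, LTI30 and LEA18 were lower in sps1 than in L17 as well, and the 3 sps1 arrays lie under the 3 wild type arrays in every panel.

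The cell wall, whose loosening lets the dark-grown hypocotyl elongate, changed in both directions. Of 29 xyloglucan endotransglucosylases (XTH) and expansins 6 fell and 4 rose (6 and 3 without the third wild type array), with a median of -0.26. EXLB1, an expansin-like protein, read 219.5, 246 and 382 in wild type and 1143, 1249.6 and 1090.1 in sps1, a log2 fold change of 2.01 ± 0.20 (SE), with an adjusted p of 4.19e-04 in limma, and XTH32 read 119, 69.7 and 90.4 in wild type and 240.4, 220.2 and 209 in sps1. Against them EXPA16 read 156, 222 and 233 in wild type and 44.4, 39.04 and 43.4 in sps1, and EXPB3 131, 137 and 137 in wild type and 73.3, 55.6 and 73.5 in sps1. Compared with L17, 8 members were lower in sps1 and 1 was higher. PME61, a pectin methylesterase, read 411, 326 and 188 in wild type and 15.04, 11.8 and 13.7 in sps1. CSLC04, which makes the glucan backbone of xyloglucan, read 1769, 1932 and 1628 in wild type and 524, 322 and 533 in sps1. PME61 and CSLC04 were the strongest calls of their lists, in which 1 of 7 pectin genes fell (2 without the third wild type array) and 2 of 27 cellulose and hemicellulose genes fell while 1 rose. The medians of these lists, -0.09 and -0.08, turned to 0.02 and 0.03 with median centring.

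Among signalling peptides CLE44 and CLE41 stood out. Both encode precursors of the same peptide, which is made in phloem and keeps vascular stem cells from becoming xylem. CLE44 read 904, 895 and 999.99 in wild type and 59.2, 88.6 and 92.9 in sps1, a log2 fold change of -3.32 ± 0.22 (SE), with an adjusted p of 5.51e-05 in limma, and CLE41 read 248, 177 and 346 in wild type and 82.6, 104 and 96.9 in sps1. Of 18 CLE and RALF peptides, a list compiled after values were seen, 2 fell and 1 rose, and 5 fell without the third wild type array. CLE44 and CLE41 fall outside the naming rule and were named after their values were seen. The SWEET transporters, which let sugars out of cells, had 3 falls and 1 rise among 16 genes (4 falls without the third wild type array). SWEET3 read 965, 929.7 and 524 in wild type and 196, 209 and 240.1 in sps1. SWEET11, a sucrose exporter of phloem parenchyma and abundant here, averaged 13443 and 8462, a call lost without any 1 of the sps1 arrays or without wild type replicate 1 or 2 (limma adjusted p up to 0.0699). The wider list of sugar and starch had 5 falls and 1 rise among 28 genes, and 6 falls without the third wild type array. With any 1 array left out 1 of its calls was kept.

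Light response and stomatal genes changed in both directions. Of 17 measured 6 rose and 3 fell (4 and 2 without the third wild type array). STOMAGEN, a peptide from the leaf mesophyll that promotes the formation of stomata, read 340.0, 261 and 229 in wild type and 642, 918 and 852 in sps1, a log2 fold change of 1.49 ± 0.20 (SE), with an adjusted p of 0.00154 in limma, and was higher than in L17 too (adjusted p = 0.0195). FIO1, which affects the period of the circadian clock, read 48.4, 55.3 and 65.8 in wild type and 159, 142 and 137 in sps1. FHL, which carries phytochrome A into the nucleus, read 452, 379 and 412 in wild type and 206, 108 and 186 in sps1. HYH, a transcription factor of the light response, gave 1.17 (adjusted p = 0.0924). The clock gene GI gave 0.61, a call lost without any of 8 arrays including the third wild type array (adjusted p = 0.0646).

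The hormone lists were short and their calls few in number. Of 15 auxin genes 3 rose and 1 fell (3 and 0 without the third wild type array), shares of 20% and 6.67% beside 6.06% and 7.38% of all named genes. IAA20 and IAA34, repressors of the auxin response, both rose. IAA20 read 389.7, 344 and 488 in wild type and 789.6, 759 and 917 in sps1, and IAA34 82.4, 89.9 and 110.2 in wild type and 197, 197 and 161 in sps1. IAA34 was also higher than in L17 (adjusted p = 0.0134), while IAA20 was not shown to be (adjusted p = 0.0548). Of 6 gibberellin genes 1 fell (16.7%) and of 11 cytokinin genes 2 fell (18.2%), UGT76C1 having the smaller p. Without the third wild type array 0 gibberellin genes fell, and 2 cytokinin genes fell and 1 rose, with the cytokinin median going from -0.22 to 0.16. Of 6 abscisic acid and cold genes 1 fell, LTI30, and of 4 jasmonate genes 1, PDF1.4. None of 8 genes of cell division and DNA replication passed, with AUR1 at -0.26 having the smallest p (limma adjusted p = 0.233).

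Genes for transcription and chromatin, in lists compiled after values were seen, gave a few calls in both directions. NRPB7, a subunit of RNA polymerase II, read 473, 422 and 419 in wild type and 802, 807 and 846 in sps1, a log2 fold change of 0.88 ± 0.13 (SE), with an adjusted p of 0.0027 in limma, and of 12 polymerase subunits 2 rose and 1 fell. CHR18, a chromatin remodelling factor, read 71.7, 69.4 and 90.5 in wild type and 224, 194 and 205 in sps1. CHR18 and HDA15, like the chromatin list, fall outside the naming rule and were named after their values were seen. HDA15, a histone deacetylase known to repress chlorophyll synthesis genes in the dark, read 471, 496 and 431 in wild type and 246, 153 and 151 in sps1. Of 29 chromatin genes 3 rose and 2 fell (5 and 3 without the third wild type array), shares of 10.3% and 6.90% beside 6.06% and 7.38% of all named genes. Other short lists held few calls. Of 4 jacalin lectins 2 fell, of 7 glucosinolate genes 1 fell (0 without the third wild type array), and of 8 touch and calcium genes 1 rose and 1 fell (0 and 1 without it).

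**Figure D4:**
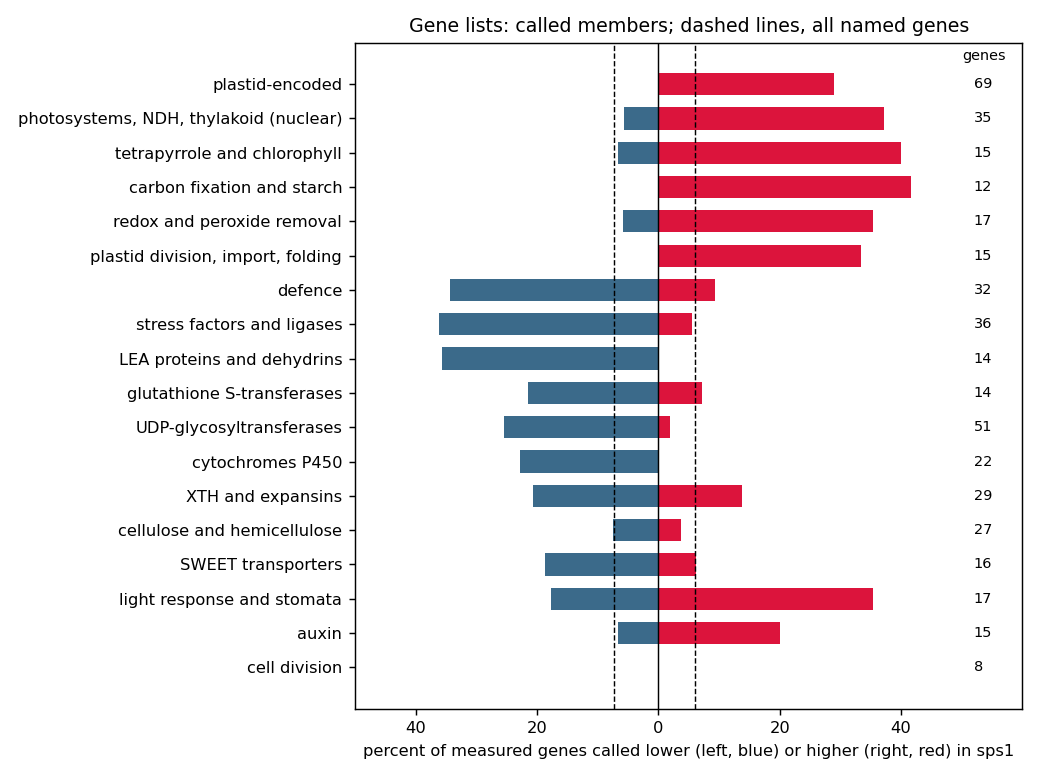
Percent of the measured genes of 18 lists that were called lower (bars to the left) or higher (bars to the right) in sps1 at an adjusted p under 0.05, with the number of measured genes at the right. Dashed lines mark 7.38% lower and 6.06% higher among all named genes. These shares are over genes of every signal, and calls were rarer among dim genes. The photosynthesis and plastid lists extend to the right, and the defence, stress, LEA and glycosyltransferase lists to the left. The nuclear photosynthesis, chlorophyll, carbon fixation, redox, plastid division, defence, stress, LEA, SWEET and light response lists were compiled after values were seen. Their distance from the dashed lines supports nothing beyond itself. The shorter lists of photosystem, chlorophyll, reactive oxygen and defensin genes, given in the text, are not drawn.

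Set against L17 in the same model, sps1 differed at 6.86% of probe sets, 3.14% higher and 3.72% lower, and at 6.31% of named genes, 2.9% higher and 3.41% lower. Of the 3325 probe sets called against wild type, 767 also differed from L17 in the same direction. Of the named genes 367 passed against wild type with and without the third wild type array and passed against L17 in the same direction, 152 higher and 215 lower. For 303 of them the comparison of L17 with wild type did not pass, which does not show that those lines were alike. AT4G19240 read 7.11, 33.8 and 15.1 in wild type, 6.33, 7.75 and 5.48 in L17 and 439, 569.7 and 694 in sps1. AT5G20460, AT4G19730 and AT5G48350 averaged under 16 in both wild type and L17. In the other direction AT1G52100 read 1623, 1409 and 877 in wild type, 955, 765 and 970.4 in L17 and 15.3, 25.4 and 9.08 in sps1. AT2G39210 read 2817, 3094 and 4226 in wild type, 1849.6, 2719 and 2533 in L17 and 213, 125 and 195 in sps1. For AT4G19500 the means were 329.9 ± 24.1, 339 ± 38.3 and 8.10 ± 10.04 in the same order (SD, n = 3). In all of these the wild type and L17 arrays were together on one side, and the sps1 arrays on the other. Of the described families GSTU16 read 505 in L17 against 48.4 in sps1 (adjusted p = 9.82e-05), UGT85A5 445 against 198 (adjusted p = 0.00567), and PSB27 3164 against 6088 (adjusted p = 0.0119). Of the 35 nuclear genes of the photosynthetic membrane 7 were higher in sps1 than in L17 and 2 lower, and of the 69 plastid transcripts 1 was higher and 1 lower. Many of the largest changes were not shown to differ from L17. GSTU23, AT2G35820, FOLB1, AT5G45500, AT3G55790 and CYP71B34 were among them (limma adjusted p between 0.0618 and 0.996). AT1G50290 and ZW9 did differ (limma adjusted p = 0.0122 and 0.029).

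**Figure D5:**
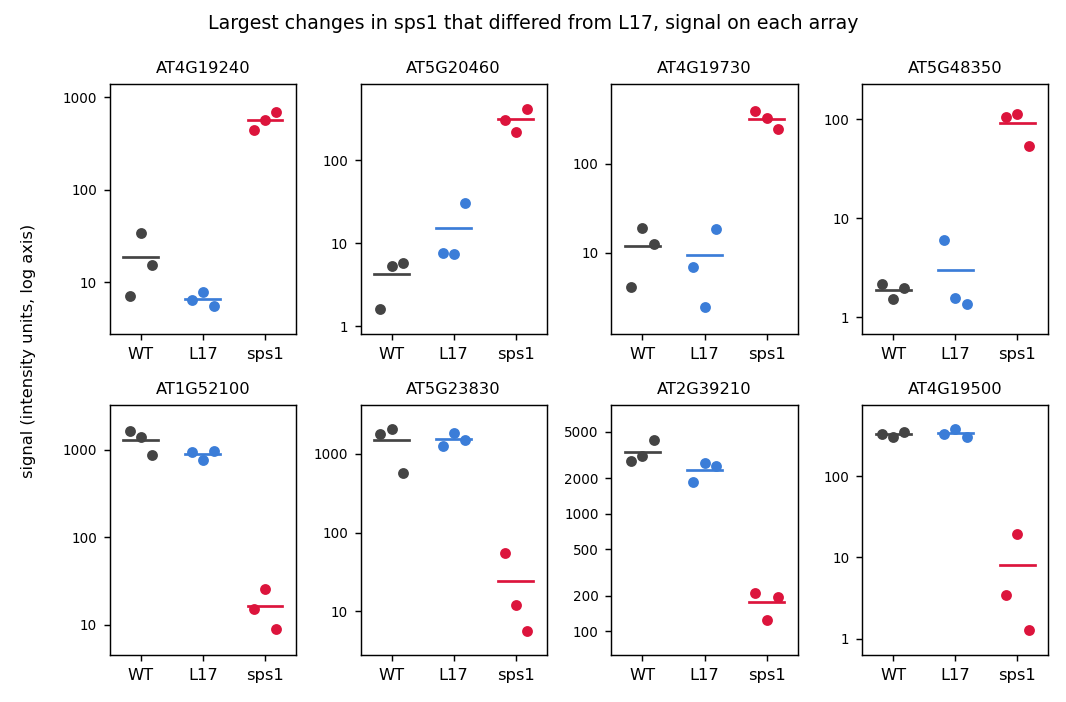
Signal (intensity units, log axis) on each of the 9 arrays for 8 of the largest changes in sps1 that also differed from L17, with points for arrays in the order of their replicate numbers and bars for the mean of 3. The upper row shows genes near the floor in wild type and L17, and the lower row genes with high signal in both.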

How the data were processed

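The values were intensities of a linear scale deposited by the authors, 1 for each probe set and array, made with GCOS per the submitters' processing notes. How GCOS summarised and scaled the probes is not given in the sources used here. On every array the trimmed mean of the deposited intensities is 500.0. Of 22810 probe sets 64 controls were left out, and log2(signal + 16) was fitted over all 9 arrays with limma 3.58.1 in R 4.3.3 (lmFit, eBayes, Benjamini-Hochberg adjustment over 22746 probe sets). A fold change is on that scale and understates the change of dim probe sets. A single gene was named by 13513 probe sets, several genes by 503, and no gene here by 8730. For each of 13355 genes the probe set with the highest mean signal was used, with names from the platform annotation updated through the RefSeq table of TAIR10.1. Genes named were the 25 largest rises and falls called with and without wild type replicate 3 with groups that do not overlap, and in each described list up to 6 members with the smallest adjusted p and members whose role the text needs. The comparison, members and lists were chosen with earlier results of these data known. The longer lists, such as those of the photosynthetic membrane, defence and stress genes, were compiled from annotated names after values were seen. So were those of folate, amino acid breakdown, plastid division, organelle RNA, mitochondrial and LEA genes. The same holds for those of SWEET, CLE and RALF, polymerase, chromatin, light response and small heat shock genes. A list's count supports nothing beyond itself. The fit was tested on simulated data. Alternatives were other pseudocounts, a filter on dim probe sets, other scalings, fewer arrays, other moderation, array weights, a replicate block and stricter thresholds. The number of arrays limits the precision.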

Additional observations from a re-analysis of the deposited data

How the results depend on the processing

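Against 3325 probe sets called (1519 higher, 1806 lower), other settings gave 2763 with a pseudocount of 1, 4124 with 64, 4133 with a mean signal of at least 50, 3478 after quantile normalization, 3721 after median centring, 4238 with trended and robust moderation and 4343 with array weights. An adjusted p under 0.01 left 1474 (584 higher, 890 lower), and a log2 fold change of at least 1 left 1568 (499 higher, 1069 lower). With wild type and sps1 arrays alone 2321 were called, 984 of them higher, and 2841 when wild type replicate 3 was also left out, a setting chosen after seeing the data. The fewer calls there come with fewer arrays for the spread. Leaving out 1 array at a time gave 2087 to 3406 calls, 843 to 1495 higher and 1233 to 1911 lower. The count was 2093 without sps1 replicate 2 and 2087 without sps1 replicate 3, and the higher calls numbered 992 without sps1 replicate 1, 843 without sps1 replicate 2 and 854 without sps1 replicate 3. The share of calls that were higher was 45.7%, and 60.2% after median centring.

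The deviations of same-numbered wild type and sps1 arrays correlated at -0.08, -0.03 and -0.04, so no pairing by replicate number was seen. With 3 arrays a line this cannot show that the samples were unpaired, and the labels do not state it. With the replicate number as a block 2492 probe sets were called, 1017 higher and 1475 lower. Of 651 list genes tested 220 were called. Of these calls 40 were lost under the block, 28 without wild type replicate 3 and 73 without sps1 replicate 3. No call turned into a call in the opposite direction under the settings run. Fold changes of genes that were not called could still change sign. The median of the cytokinin list went from -0.22 to 0.16 without wild type replicate 3. Of 98 list counts, 1 in each direction for a described list, 37 moved by over 1.5 times, or to or from 0, without sps1 replicate 2, 40 without sps1 replicate 3 and 19 without wild type replicate 3. Of 176 called genes of the described lists 92 kept their call with any 1 array left out.

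Signals under 16 cannot be ranked against each other, and 16.5% to 21.3% of probe sets lay there on an array. With 3 arrays a line of unstated origin, differences between lines and between growth batches cannot be told apart. Annotated names cover 13513 of 22746 probe sets, so lists are incomplete.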

Other observations

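Among named and measured genes in chromosome order, 40 pairs of neighbours both fell at least 2-fold and 5 pairs both rose at least 2-fold. Over all probe sets, a wider set than the named genes put in this order, 1069 fell and 499 rose by at least 2-fold. Whether neighbours fall together beyond what such totals bring was not tested. There were 2 runs of 3 falling genes, AT1G67860 to AT1G67880 and AT4G16830 to AT4G16850, and 1 run of 4, AT3G29110 to AT3G29140. In the run of 4 the mean signals went from 30.6, 110.3, 179 and 62.0 in wild type to 3.11, 4.09, 63.3 and 7.46 in sps1, in that order. AT4G16830, the most abundant of these genes, averaged 2715 in wild type and 941 in sps1, which is -1.51 on the log2 scale with an adjusted p of 1.51e-04 in limma. Of the CYP71B genes, CYP71B24 and CYP71B25 made up 1 of the pairs.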
